A study of Mus musculus with 25 samples.

Results

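YAP and TAZ, the transcriptional co-activators at the end of the Hippo pathway, the 4 TEAD factors through which they bind DNA, and 4 of their classical target genes were followed through 5 murine melanoma cell lines. The genes were taken by symbol: Yap1, Wwtr1 (which encodes TAZ), Tead1, Tead2, Tead3, Tead4, Ccn1 (Cyr61), Ccn2 (Ctgf), Ankrd1 and Amotl2, 10 of the 55385 genes in the count files. All 10 passed the filter on low counts, Ankrd1 only through its counts in RET and D4M. RNA-seq libraries of 5 biological replicates per line, 25 in all, came from untreated cells harvested at a confluency of 50%. WT31 arose in Tyr::NrasQ61K/°; INK4a-/- mice, RET in mice with a RET transgene under the metallothionein-I promoter, D4M in mice with Tyr::CreER and BrafCA among their alleles, and HCmel12 in a primary melanoma of HGF-CDK4(R24C) mice. B16F10 luc2 was a commercial line with many mutations and none in Braf or Nras. WT31, B16F10 luc2 and RET formed the group of high and intermediate liver metastatic lines (HIM-melanoma), and D4M and HCmel12 the group of low metastatic lines (LM-melanoma). Each line is a separate tumor model, its replicates are cultures of that line, and p-values measure the spread between cultures. Medium differed as well and cannot be told apart from the line. B16F10 luc2, WT31 and RET shared RPMI medium with 10% serum, HCmel12 had the same serum in RPMI with several supplements, beta-mercaptoethanol among them, and D4M had Advanced DMEM/F-12 with 5% serum.

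In the Hippo pathway, a kinase cascade of MST and LATS kinases phosphorylates YAP and TAZ, which keeps them in the cytoplasm and marks them for degradation. When the cascade is off, for example in sparse or spread cells, YAP and TAZ enter the nucleus and bind TEAD factors, which recognise DNA through a conserved domain. Ccn1, Ccn2, Ankrd1 and Amotl2 are widely used as readouts of this activity, and Amotl2 also acts as a brake on YAP. The activity of YAP and TAZ is set mostly at the protein level, which transcript levels do not measure.

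Library totals lay between 24199083 and 25843286 counts, and the lowest counts were those of Ankrd1 and, in HCmel12, of Ccn2. Levels are given as CPM, counts scaled to a common library total, with the total corrected by the trimmed mean of M-values (TMM). The summed CPM of 7 melanocyte markers ranged from 12026 to 30205 in the libraries of WT31, B16F10 luc2, RET and HCmel12. In D4M, which is labelled a melanoma line, the same sum was 59.6 in replicate 1 and 6.54 to 12.1 in the others, and Sox10, Mlana, Tyr and Tyrp1 were at 0 in at least 1 library. The means exceeded 1 CPM for 4 of the 7 in D4M and, without replicate 1, for 1, Mitf. The 9 fibroblast markers, of which 6 exceeded 1 CPM and 1 was at 0 in D4M, summed to 721 to 1396 CPM in D4M and to at most 107 CPM elsewhere, with 1.75 to 2.29 CPM in HCmel12. The 6 endothelial markers summed to 26.1 to 39.6 CPM in HCmel12, where Kdr alone had 31 CPM on average, none of the others exceeded 1 CPM and 2 were at 0, and to at most 3.22 CPM in the other lines. Leukocyte and keratinocyte markers stayed at or below 16 and 15.3 CPM. D4M thus differed from the others in marker genes wherever it is named below, and the part of this in the results was not tested. In bulk RNA, fewer cells of a type and less RNA per cell cannot be told apart. D4M replicate 1 and HCmel12 replicate 4, with 17684 CPM of melanocyte markers against 12026 to 13226 in its line, were the libraries that stood apart. Fold changes without them are given where a call changed.

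None of the 10 genes was called with the same sign in all 6 comparisons of a HIM-melanoma with a LM-melanoma line. Over all tested genes the share was 12.9%, so that none among 10 genes is close to it. The sign alone was shared by all 6 for Ccn2 (higher, called in 4) and Tead3 (lower, called in 5), although on log2 TPM Tead3 was not lower in WT31 than in D4M (0.03). D4M had the highest mean level of Wwtr1, Tead1, Tead3 and Tead4, HCmel12 the lowest of Tead4, Ccn1 and Ccn2, and Yap1 was nearly level throughout. A gene was called when the adjusted p of limma for a pair of lines was under 0.05. Such calls were common over the transcriptome, so each count stands beside the share of all 15247 tested genes that were called. In comparison to D4M, 9 members were called in WT31 (4 higher, 5 lower; 76.1% of all genes), 7 in B16F10 luc2 (1 higher, 6 lower; 77.7%) and 8 in RET (2 higher, 6 lower; 77.1%). In comparison to HCmel12, 5 were called in WT31 (all 5 higher; 70.4% of all genes), 9 in B16F10 luc2 (4 higher, 5 lower; 69.1%) and 9 in RET (4 higher, 5 lower; 67.2%). Among HIM-melanoma, 7 were called between WT31 and B16F10 luc2 (5 higher, 2 lower in WT31; 72.8%), 8 between WT31 and RET (6 higher, 2 lower in WT31; 73.2%) and 8 between B16F10 luc2 and RET (3 higher, 5 lower in B16F10 luc2; 51.5%). Between D4M and HCmel12, all 10 were called, 7 higher and 3 lower in D4M, against 72.5% of all genes. These counts include Ankrd1 in the 6 pairs of RET or D4M with another line, a gene that was tested only because it is higher in RET and D4M. The median absolute log2 fold change of the members in D4M against HCmel12 was 1.5, compared with 0.60 over all genes, and 1.3 without Ankrd1, which had 0 counts in HCmel12. For RET against D4M it was 0.73, close to the 0.71 over all genes.

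**Figure D1:**
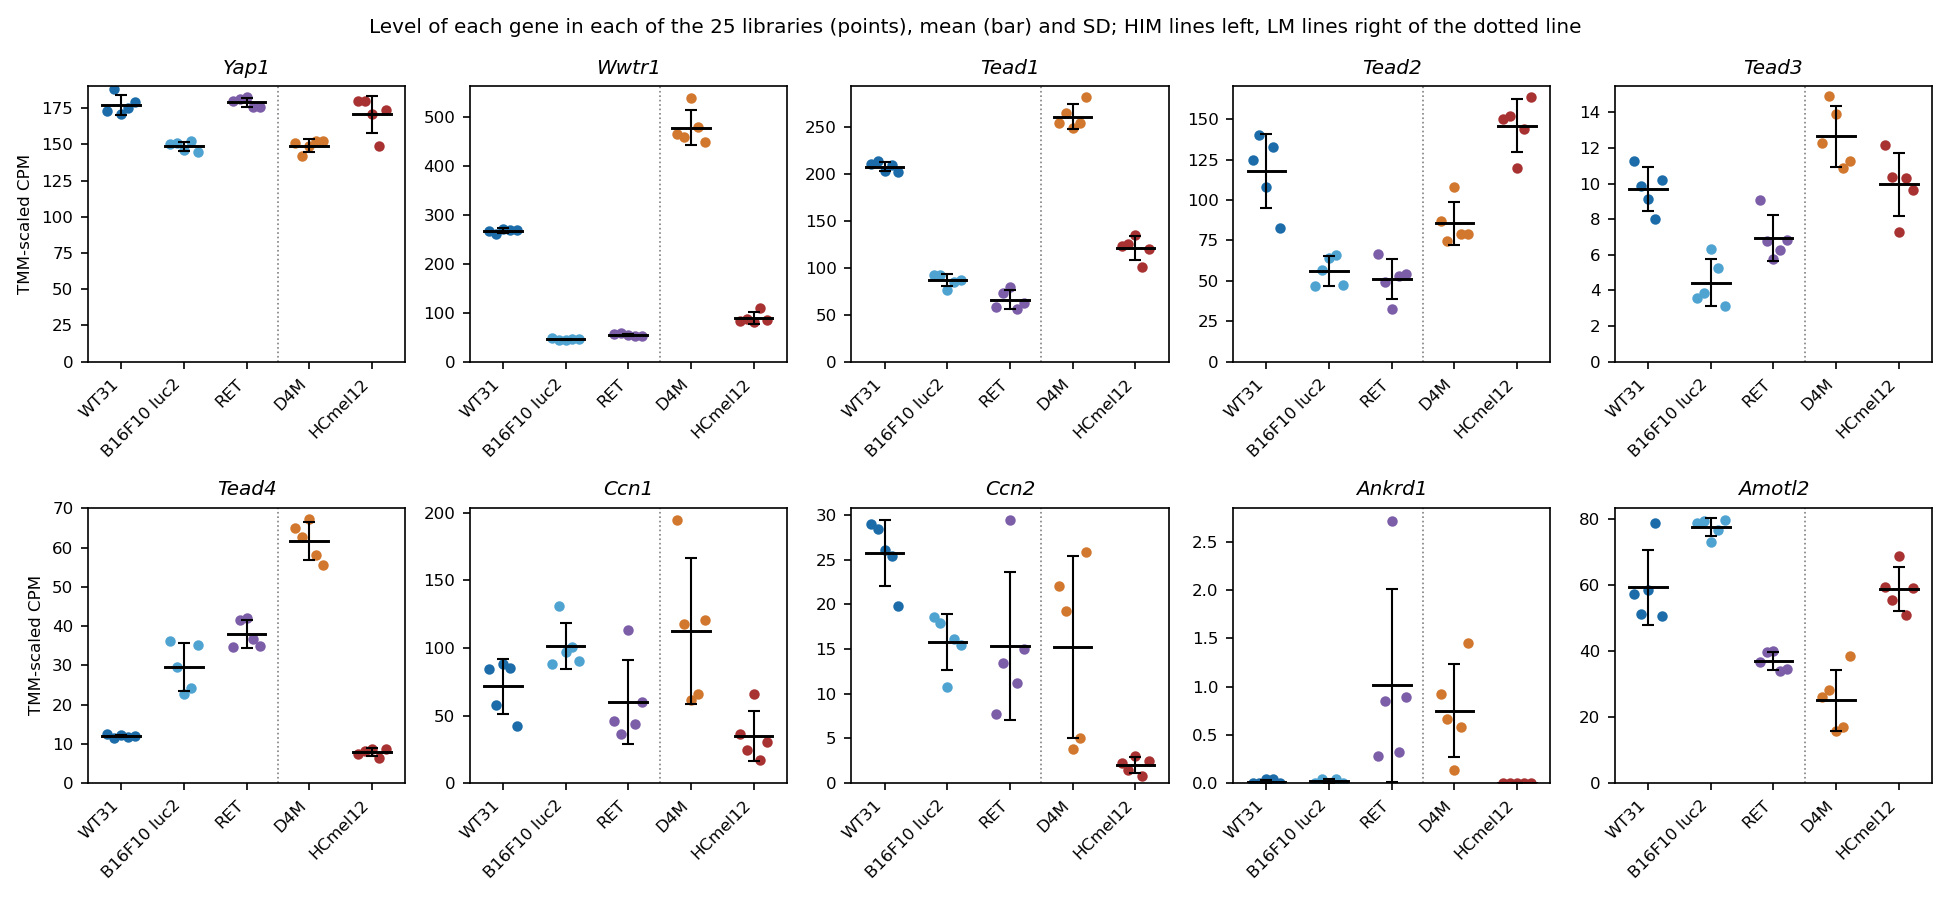
TMM-scaled CPM (y axis, linear, each panel with its own range) of the 10 genes in every library (points) by line (x axis), with the mean (bar) and SD (whiskers) over 5 replicates; HIM-melanoma lies left and LM-melanoma right of the dotted line. Wwtr1 ran from 45.7 CPM in B16F10 luc2 to 479 CPM in D4M while Yap1 stayed between 149 and 179 CPM, and replicates of Ccn1, Ccn2 and Ankrd1 spread far more than those of Yap1 or Wwtr1.

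Yap1 (ENSMUSG00000053110.13, chr9:7931999-8004596, minus strand of GRCm38, GENCODE vM21) varied little. Its CPM in replicates 1 to 5 were 173, 188, 171, 175 and 179 in WT31, 180, 181, 183, 176 and 176 in RET, and 180, 180, 171, 149 and 174 in HCmel12. They were 150, 151, 146, 152 and 145 in B16F10 luc2, and 151, 142, 149, 152 and 152 in D4M. WT31 and RET were above B16F10 luc2 and D4M without overlap, and HCmel12 replicate 4 fell into the range of the lower pair. WT31 and RET exceeded D4M by 0.25 (SE 0.05, adjusted p = 2.2e-05) and 0.26 (SE 0.05, adjusted p = 1.0e-05) on the log2 scale. HCmel12 also exceeded D4M, with -0.19 for D4M against HCmel12 (SE 0.05, adjusted p = 5.1e-04). No call was made between RET and WT31 (adjusted p = 0.81), WT31 and HCmel12 (0.27), RET and HCmel12 (0.18) or D4M and B16F10 luc2 (0.95). With log2 TPM in place of the counts, WT31 and RET were called above HCmel12, by 0.24 (adjusted p = 0.0025) and 0.16 (adjusted p = 0.032). With counts scaled by library size alone, WT31 was called above HCmel12 by 0.10 (adjusted p = 0.05 after rounding).

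Wwtr1 (ENSMUSG00000027803.14, chr3:57455649-57575910, minus strand) was the more divergent of the co-activators and differed in all 10 pairs of lines. Replicates 1 to 5 gave 466, 460, 539, 479 and 450 CPM in D4M and 268, 260, 272, 270 and 269 CPM in WT31. In HCmel12 they gave 83.8, 87.4, 80.7, 109 and 84.8 CPM, in RET 55.5, 58.3, 53.8, 53.2 and 53.2 CPM, and in B16F10 luc2 47.7, 44.7, 44.4, 45.9 and 45.7 CPM. No line overlapped with another, and the order was D4M, WT31, HCmel12, RET and B16F10 luc2. D4M was 10.5-fold above B16F10 luc2 (log2 fold change of B16F10 luc2 against D4M -3.39, SE 0.06, adjusted p = 2.3e-24) and 8.72-fold above RET (-3.12, SE 0.06, adjusted p = 6.7e-24). WT31 stood apart from the other HIM-melanoma lines, with 2.55 over B16F10 luc2 (SE 0.06, adjusted p = 1.6e-21) and 2.29 over RET (SE 0.06, adjusted p = 8.7e-21). The LM-melanoma lines differed by 2.43 (D4M against HCmel12, SE 0.06, adjusted p = 5.6e-22), and by 2.52 without D4M replicate 1 and HCmel12 replicate 4. WT31 was above HCmel12 by 1.60 and below D4M, with -0.84, so that it lay between the LM-melanoma lines. The smallest difference was that of B16F10 luc2 against RET, -0.26 (SE 0.07, adjusted p = 0.0017).

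Since Yap1 and Wwtr1 have partly exchangeable products, their balance was computed from the deposited TPM, a measure that is scaled by transcript length as well as by library and allows levels of different genes to be compared. TPM of 24 libraries was used, 4 of them from D4M. Yap1 made up 80.2% ± 0.603 (SD, n = 5) of the summed TPM of Yap1 and Wwtr1 in B16F10 luc2, 80.8% ± 0.25 (n = 5) in RET and 70.2% ± 4.15 (n = 5) in HCmel12. It made up 45.2% ± 1.38 (n = 5) in WT31 and 29.4% ± 1.94 (n = 4) in D4M. In HCmel12, replicate 4 had a Yap1 share of 62.9%, compared with 71.4% to 73.1% in the other libraries of the line. Thus Wwtr1 transcripts outnumbered those of Yap1 in WT31 and D4M and were the minority in the other lines. The share differed in 9 of the 10 pairs of lines, by up to 51.4 points between RET and D4M (exact two-sided permutation test, p = 0.016, adjusted p = 0.027 over 50 tests of shares). B16F10 luc2 and RET differed by -0.660 points (exact permutation p = 0.063, adjusted p = 0.093). The summed TPM of the 2 genes was 194 ± 11.4 in D4M and 167 ± 3.87 in WT31, compared with 91.0 ± 4.98 in HCmel12, 88.5 ± 5.62 in RET and 71.4 ± 2.34 in B16F10 luc2. With counts divided by the length of the longest transcript, the Yap1 share was lower in every line, at 74.3%, 74.4%, 63.0%, 37.0% and 21.7% in B16F10 luc2, RET, HCmel12, WT31 and D4M, and Yap1 still made up the minority only in WT31 and D4M.

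**Figure D2:**
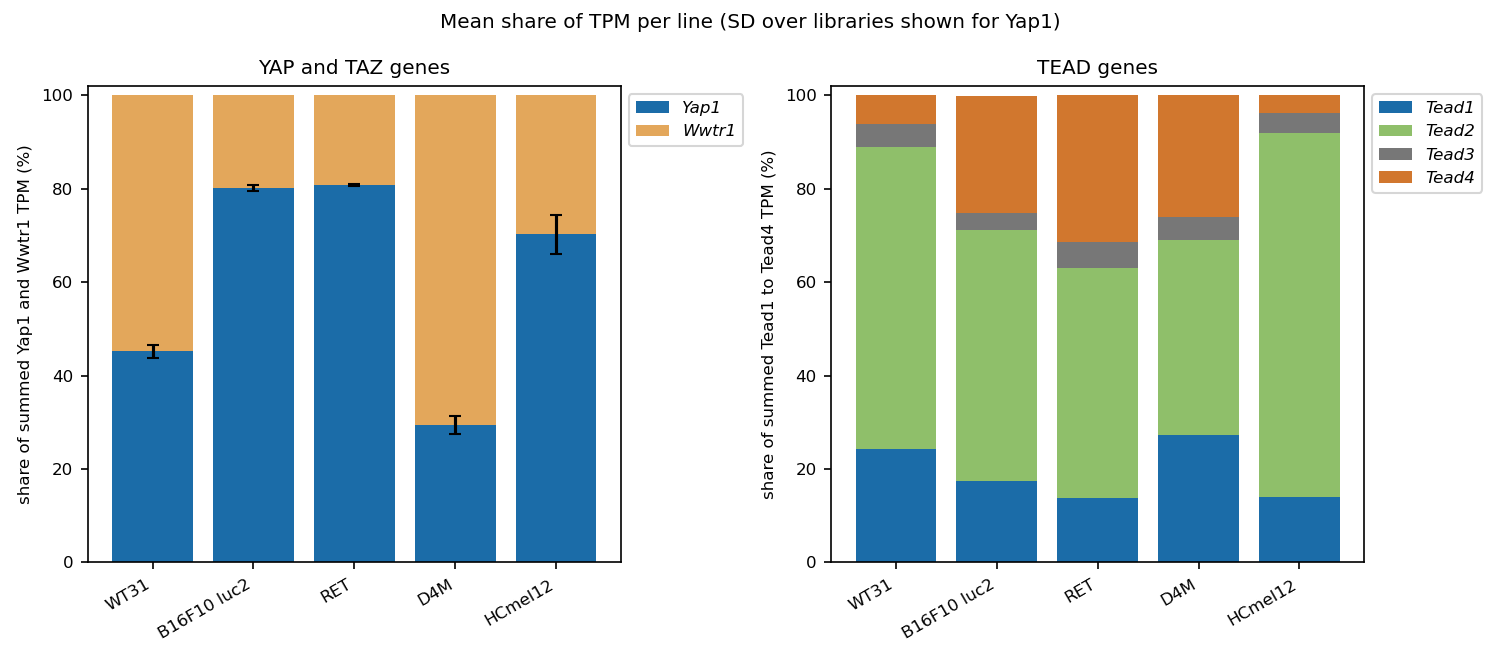
Mean share (y axis, percent) of Yap1 and Wwtr1 in their summed TPM (left) and of Tead1 to Tead4 in theirs (right) by line (x axis); n = 5 libraries per line and 4 for D4M, with SD whiskers for Yap1. Yap1 transcripts form 80.2% and 80.8% in B16F10 luc2 and RET and 29.4% in D4M, and Tead4 forms 3.78% of the TEAD transcripts in HCmel12 and 31.4% in RET.

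Of the TEAD genes, Tead1 (ENSMUSG00000055320.17, chr7:112679318-112906807, plus strand) followed the order D4M, WT31, HCmel12, B16F10 luc2 and RET and differed in all 10 pairs. Its CPM in replicates 1 to 5 were 254, 265, 249, 254 and 282 in D4M, 210, 214, 203, 209 and 202 in WT31, and 123, 125, 135, 101 and 120 in HCmel12. They were 92.0, 91.8, 76.4, 85.0 and 86.6 in B16F10 luc2 and 57.8, 72.7, 79.9, 56.4 and 62.7 in RET. RET and B16F10 luc2 overlapped through RET replicate 3, and the other neighbours in this order did not overlap. RET was below D4M, with a log2 fold change of -1.99 (SE 0.08, adjusted p = 7.1e-18), and WT31 was above RET by 1.67 (SE 0.08, adjusted p = 5.7e-16). The difference of WT31 against D4M was small, -0.33 (SE 0.08, adjusted p = 4.3e-04), and fell to -0.10 with library sizes alone (adjusted p = 0.25) and with log2 TPM (adjusted p = 0.47 with a pseudocount of 1).

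Tead2 (ENSMUSG00000030796.17, chr7:45215753-45233644, plus strand), a TEAD gene known from embryonic tissue, was highest in HCmel12. Replicates 1 to 5 gave 150, 152, 120, 144 and 164 CPM in HCmel12, 125, 140, 108, 133 and 82.8 CPM in WT31, and 87.1, 74.4, 108, 79.1 and 79.2 CPM in D4M. B16F10 luc2 gave 46.5, 56.5, 64.4, 65.8 and 47.1 CPM and RET 66.6, 49.1, 32.7, 53.2 and 54.5 CPM. B16F10 luc2 and RET lay below all libraries of the other lines. RET against HCmel12 gave -1.54 (SE 0.15, adjusted p = 1.9e-09) and B16F10 luc2 against HCmel12 -1.39 (SE 0.15, adjusted p = 9.7e-09). D4M against HCmel12 gave -0.78 (SE 0.15, adjusted p = 4.9e-05). WT31 and HCmel12 overlapped and differed by -0.33 (95% CI -0.63 to -0.02, adjusted p = 0.051), a difference that was called without WT31 replicate 2 (-0.40, adjusted p = 0.026), WT31 replicate 4 (-0.38, 0.036) or HCmel12 replicate 3 (-0.40, 0.025). It was called as well with DESeq2 size factors (-0.35, adjusted p = 0.035), no filter (-0.34, 0.039), 10 counts in every library (-0.33, 0.044), the Wald test of DESeq2 (-0.33, 0.044) or the libraries of this pair alone (-0.35, 0.036), and not with the replicate block, library sizes alone, edgeR's quasi-likelihood test or log2 TPM. It was also called, at -0.33, without B16F10 luc2 replicate 4 (adjusted p = 0.05 after rounding), RET replicate 1 (0.041), RET replicate 3 (0.026) or D4M replicate 3 (0.043), libraries of other lines that share in the estimate of the spread.

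Tead3 (ENSMUSG00000002249.21, chr17:28331671-28350817, minus strand), like Tead1, was highest in D4M and lower in B16F10 luc2 and RET than elsewhere. It reached 12.7 ± 1.72 CPM (SD, n = 5) in D4M, 9.94 ± 1.77 in HCmel12, 9.69 ± 1.22 in WT31, 6.95 ± 1.28 in RET and 4.43 ± 1.31 in B16F10 luc2. It was lower in B16F10 luc2 than in D4M, with -1.56 (SE 0.17, adjusted p = 6.3e-09), and lower than in HCmel12, with -1.20 (SE 0.18, adjusted p = 1.1e-06). HCmel12 and WT31 overlapped (adjusted p = 0.88). The smaller calls depended on single libraries and on the processing. D4M against HCmel12, 0.36 (adjusted p = 0.026), was not called without D4M replicate 2 (0.30, adjusted p = 0.068), D4M replicate 3 (0.33, 0.053) or HCmel12 replicate 3 (0.24, 0.11), and WT31 against D4M, -0.38 (adjusted p = 0.015), was not called without WT31 replicate 4 (-0.31, 0.053). With library sizes alone these differences were 0.18 (adjusted p = 0.25) and -0.16 (adjusted p = 0.3), and on log2 TPM with a pseudocount of 1 the latter had the other sign, 0.03 (adjusted p = 0.88). The former was also not called with no filter (0.35, adjusted p = 0.063), edgeR's quasi-likelihood test (0.35, 0.052) or log2 TPM (0.23, 0.16).

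Tead4 (ENSMUSG00000030353.15, chr6:128224288-128300823, minus strand), which is known for its role in trophectoderm and muscle, was the TEAD gene with the largest difference between the LM-melanoma lines. D4M gave 65.0, 62.7, 67.2, 58.2 and 55.5 CPM in replicates 1 to 5 and HCmel12 7.34, 8.29, 8.80, 6.34 and 8.62 CPM. RET gave 34.7, 41.6, 42.2, 36.8 and 35.0 CPM, B16F10 luc2 36.1, 29.6, 22.7, 24.3 and 35.2 CPM, and WT31 12.4, 11.6, 12.2, 11.7 and 12.0 CPM. D4M was above and HCmel12 below all libraries of the other lines, and RET and B16F10 luc2 overlapped. D4M exceeded HCmel12 7.85-fold (log2 fold change 2.97, SE 0.13, adjusted p = 7.1e-17). All HIM-melanoma lines were above HCmel12, RET by 2.28 (SE 0.13, adjusted p = 5.5e-14), and below D4M, with -2.36 for WT31 (SE 0.11, adjusted p = 4.7e-16), so that the gene was called in all 6 comparisons of HIM-melanoma with LM-melanoma with opposite signs for D4M and HCmel12. Tead3 and Tead4 share 29 of their 31-base transcript sequences (1.02% of the sequences of Tead3 and 0.796% of those of Tead4 occur in any other gene). How reads with these sequences were assigned was not tested.

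By its mean share of TPM, Tead2 was the leading TEAD gene in every line, whereas counts per length of the longest transcript put Tead1 (35.0%) beside Tead2 (33.4%) in D4M. By TPM it made up 78.0% ± 2.81 of the summed TEAD TPM in HCmel12, 64.7% ± 4.34 in WT31, 53.8% ± 6.71 in B16F10 luc2, 49.3% ± 9.25 in RET (SD, n = 5 each) and 41.8% ± 3.87 in D4M (n = 4). Tead4 was second in RET with 31.4% ± 5.28 and in B16F10 luc2 with 25.2% ± 5.94, but formed 6.17% ± 0.786 in WT31 and 3.78% ± 0.721 in HCmel12. Between the libraries of RET, the share of Tead2 ran from 34.1% to 57.9% and that of Tead4 from 25.5% to 39.5%. In D4M, Tead1 with 27.2% ± 3.30 and Tead4 with 26.1% ± 1.81 lay side by side. The Tead4 share of D4M differed from that of HCmel12 by 22.3 points (exact permutation p = 0.016, adjusted p = 0.027) and from that of RET by 5.32 points in the other direction without a call (adjusted p = 0.15). Tead3 ranged from 3.55% ± 1.07 in B16F10 luc2 to 5.51% ± 0.749 in RET. Over both families of shares, 32 of 50 exact permutation tests had an adjusted p under 0.05, where the smallest p for 5 against 5 libraries was 0.0079. The summed TEAD TPM was 148 ± 20.2 in WT31, 141 ± 13.2 in D4M and 135 ± 14.2 in HCmel12, compared with 77.6 ± 4.88 in RET and 76.8 ± 2.25 in B16F10 luc2.

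Turning to the targets, TEAD factors recognise the core CATTCC, which reads GGAATG on the other strand. This 6-base core was searched on both strands in the 250 bases before the annotated starts of the RefSeq table (GRCm38.p6), which held 7 of the 10 genes. It was found for 6 of them, Yap1, Wwtr1, Tead3, Ccn1, Ankrd1 and Amotl2, and not for Tead2, and it occurs in 12.6% of all 32851 windows and for 14.4% of the 27025 genes. Tead1, Tead4 and Ccn2 were not in the table. The AP-1 core TGANTCA (6.75% of windows) and the CArG box, the element of SRF (1.47% of windows), were found in no window of the 7 genes. A match describes letters only and is no evidence of a bound site. The upstream sequence of Ccn1 (chr3:145649986-145650235) is shown whole because, unlike those of Ankrd1 and Amotl2, it lies outside annotated exons, and 26-base stretches around the core are shown for the target genes Ankrd1 (chr19:36120039-36120064 and chr19:36119952-36119977) and Amotl2 (chr9:102717729-102717754) and for the co-activators Wwtr1 (chr3:57576031-57576056) and Yap1 (chr9:8004722-8004747). All are written 5′ to 3′ on the strand of the gene, plus for Amotl2 and minus for the others, and capitals mark the core. The stretches of Ankrd1 and Amotl2 lie in annotated exons of these genes.
Ccn1: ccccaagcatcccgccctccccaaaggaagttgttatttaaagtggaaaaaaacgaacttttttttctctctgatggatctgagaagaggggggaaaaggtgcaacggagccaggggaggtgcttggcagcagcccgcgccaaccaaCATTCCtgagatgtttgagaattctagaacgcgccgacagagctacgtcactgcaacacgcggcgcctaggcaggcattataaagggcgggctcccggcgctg
Ankrd1, distal: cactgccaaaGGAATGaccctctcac
Ankrd1, proximal: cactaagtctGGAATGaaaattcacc
Amotl2: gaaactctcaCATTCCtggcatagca
Wwtr1: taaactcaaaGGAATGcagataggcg
Yap1: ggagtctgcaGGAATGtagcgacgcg

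The core lies 103 bases before the start of Ccn1, 210 and 123 bases before that of Ankrd1, 65 bases before that of Amotl2, 136 bases before that of Wwtr1 and 141 bases before that of Yap1. The same site of Wwtr1 lies 170 bases before another start of that gene. Further matches were 182 bases before a start of Tead3 and 123 and 114 bases before another start of Tead3.

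Ccn1 (ENSMUSG00000028195.4, chr3:145646976-145649981, minus strand) encodes a secreted matricellular protein that binds integrins. It was 195, 118, 61.8, 65.9 and 121 CPM in replicates 1 to 5 of D4M, 87.9, 131, 96.9, 101 and 90.4 CPM in B16F10 luc2 and 84.7, 57.7, 88.5, 84.9 and 42.0 CPM in WT31. It was 45.8, 36.4, 113, 43.7 and 60.2 CPM in RET and 36.6, 24.4, 65.9, 16.9 and 30.4 CPM in HCmel12. The ranges of D4M, WT31, RET and HCmel12 overlapped, and B16F10 luc2 lay above all libraries of HCmel12. HCmel12 was nonetheless lower on average than each other line. The log2 fold change over HCmel12 was 1.71 in D4M (SE 0.34, adjusted p = 6.7e-05), 1.68 in B16F10 luc2 (SE 0.34, adjusted p = 9.2e-05), 1.13 in WT31 (SE 0.34, adjusted p = 0.0047) and 0.80 in RET (SE 0.35, adjusted p = 0.043). The difference between RET and HCmel12 lost its call without RET replicate 3 (0.55, adjusted p = 0.16), RET replicate 5 (0.77, 0.074), HCmel12 replicate 2 (0.71, 0.097), HCmel12 replicate 4 (0.58, 0.15) or HCmel12 replicate 5 (0.79, 0.069), and without D4M replicate 1 and HCmel12 replicate 4 together (0.58, 0.12). It was also not called with DESeq2 size factors (0.78, adjusted p = 0.051), no filter (0.81, 0.12), the Wald test of DESeq2 (0.76, 0.058) or the libraries of the pair alone (0.79, 0.05).

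Between the other lines, differences of Ccn1 were small beside its spread. B16F10 luc2 against RET, 0.87 (SE 0.31, adjusted p = 0.023), was not called without B16F10 luc2 replicate 2 (0.78, adjusted p = 0.059) or without RET replicate 1 (0.81, 0.052), 2 (0.72, 0.073) or 4 (0.79, 0.056), nor with edgeR's quasi-likelihood test (0.76, 0.056) or the Wald test of DESeq2 (0.75, 0.073). WT31 against D4M, -0.57 (95% CI -1.21 to 0.06, adjusted p = 0.095), was called without D4M replicate 3 (-0.77, adjusted p = 0.031) or replicate 4 (-0.74, 0.04). RET against D4M was called at -0.90 (SE 0.32, adjusted p = 0.012) from counts and not from log2 TPM (-0.54, adjusted p = 0.15). WT31 and B16F10 luc2 (adjusted p = 0.12), WT31 and RET (0.36) and B16F10 luc2 and D4M (0.93) were not called apart. The first of these pairs was called when only its own libraries were fitted (-0.52, adjusted p = 0.023).

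Ccn2 (ENSMUSG00000019997.11, chr10:24595442-24598683, plus strand), a related matricellular protein linked to matrix production and fibrosis, was the target with the clearest separation of a line. HCmel12 had 2.22, 1.46, 3.03, 0.841 and 2.48 CPM in replicates 1 to 5. WT31 had 29.0, 28.4, 26.1, 25.4 and 19.8 CPM, B16F10 luc2 18.6, 17.9, 10.7, 16.1 and 15.5 CPM, RET 7.72, 13.4, 29.4, 11.2 and 15.0 CPM, and D4M 22.1, 19.2, 3.79, 5.06 and 25.9 CPM. Every library of HCmel12 lay below every library of the other lines, D4M replicate 3 being the nearest. WT31 exceeded HCmel12 13.8-fold (log2 fold change 3.79, SE 0.61, adjusted p = 4.6e-06), B16F10 luc2 by 3.07 (SE 0.63, adjusted p = 1.1e-04), RET by 2.91 (SE 0.63, adjusted p = 2.2e-04) and D4M by 2.66 (SE 0.64, adjusted p = 6.2e-04). The antisense gene Gm15270 shares 559 of the 2867 31-base sequences of Ccn2. Its counts were 0 to 8.2 in HCmel12, where Ccn2 had 20.8 to 74.8 counts, and at most 20.2 in any line, where Ccn2 had up to 765 counts. How kallisto divided reads between the genes was not tested.

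Among the lines with more Ccn2, differences were smaller and less certain. WT31 was above D4M by 1.13 (SE 0.36, adjusted p = 0.0067) and above RET by 0.88 (SE 0.34, adjusted p = 0.022). The former was not called without D4M replicate 3 (0.72, adjusted p = 0.051), and the latter not without RET replicate 1 (0.67, 0.082) or RET replicate 4 (0.80, 0.052). With edgeR's quasi-likelihood test these differences were 0.76 (adjusted p = 0.069) and 0.75 (adjusted p = 0.074), and with the Wald test of DESeq2 0.73 (0.12) and 0.75 (0.11). WT31 against B16F10 luc2 gave 0.72 (95% CI 0.04 to 1.4, adjusted p = 0.055), although the libraries of the lines did not overlap, and was called without WT31 replicate 5 (0.81, adjusted p = 0.038), without D4M replicate 1 and HCmel12 replicate 4 together (0.72, 0.041), with library sizes alone (0.79, 0.037), with the libraries of this pair alone (0.74, 4.3e-04) and with log2 TPM and a pseudocount of 1 (0.82, 0.046). It was also called, at 0.72, without RET replicate 3 (adjusted p = 0.04) or without any of the D4M replicates 1 to 5 (adjusted p = 0.041, 0.046, 0.033, 0.049 and 0.033). B16F10 luc2, RET and D4M were not called apart (adjusted p = 0.34 to 0.75).

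Ankrd1 (ENSMUSG00000024803.9, chr19:36111961-36120099, minus strand), an ankyrin repeat protein of the muscle sarcomere and nucleus, was detectable in RET and D4M. RET had 7, 23, 69, 8 and 23 counts in replicates 1 to 5, or 0.277, 0.855, 2.72, 0.320 and 0.888 CPM. D4M had 20, 15, 3, 13 and 34 counts, or 0.919, 0.667, 0.134, 0.578 and 1.45 CPM. WT31 and B16F10 luc2 had at most 1 count per library, and HCmel12 had 0 in all 5. A floor of 3 counts per library was set for these lines, also where a library had 1 count. The mean of RET was 8.87-fold above this floor for WT31, 8.34-fold for B16F10 luc2 and 8.36-fold for HCmel12. The mean of D4M was 6.57-fold, 6.18-fold and 6.19-fold above the same floors. Without RET replicate 3 the values for RET were 5.13-fold, 4.82-fold and 4.84-fold. Without D4M replicate 5 those for D4M were 5.03-fold, 4.74-fold and 4.75-fold. The floors were 0.114 to 0.121 CPM, and D4M replicate 3, at 0.134 CPM, lay close to them. No p is given for these pairs, because the gene passed the filter through RET and D4M. RET and D4M overlapped and were not called apart (adjusted p = 0.64). In the remaining lines the gene was not detectable at this depth.

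Amotl2 (ENSMUSG00000032531.15, chr9:102716672-102733418, plus strand), a scaffold protein of the angiomotin family that binds YAP, was highest in B16F10 luc2 and lowest in D4M. B16F10 luc2 had 78.7, 79.5, 73.1, 76.5 and 79.6 CPM in replicates 1 to 5, WT31 57.3, 51.2, 58.4, 78.8 and 50.5 CPM, and HCmel12 59.5, 55.4, 68.7, 50.9 and 59.1 CPM. RET had 36.7, 39.8, 39.9, 33.9 and 34.7 CPM and D4M 26, 28.1, 15.7, 17 and 38.5 CPM. D4M and RET lay below all libraries of the other lines and overlapped with each other through D4M replicate 5. B16F10 luc2 was above D4M by 1.70 (SE 0.16, adjusted p = 1.8e-10). WT31 was above D4M by 1.30 (SE 0.16, adjusted p = 3.9e-08), HCmel12 was above D4M, with -1.30 for D4M against HCmel12 (SE 0.16, adjusted p = 4.4e-08), and RET was above D4M by 0.64 (SE 0.16, adjusted p = 0.001). WT31 and HCmel12 were not called apart (95% CI of the log2 fold change -0.28 to 0.28). The difference of WT31 against B16F10 luc2, -0.41 (adjusted p = 0.0091), was not called from log2 TPM (-0.34, adjusted p = 0.086).

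**Figure D3:**
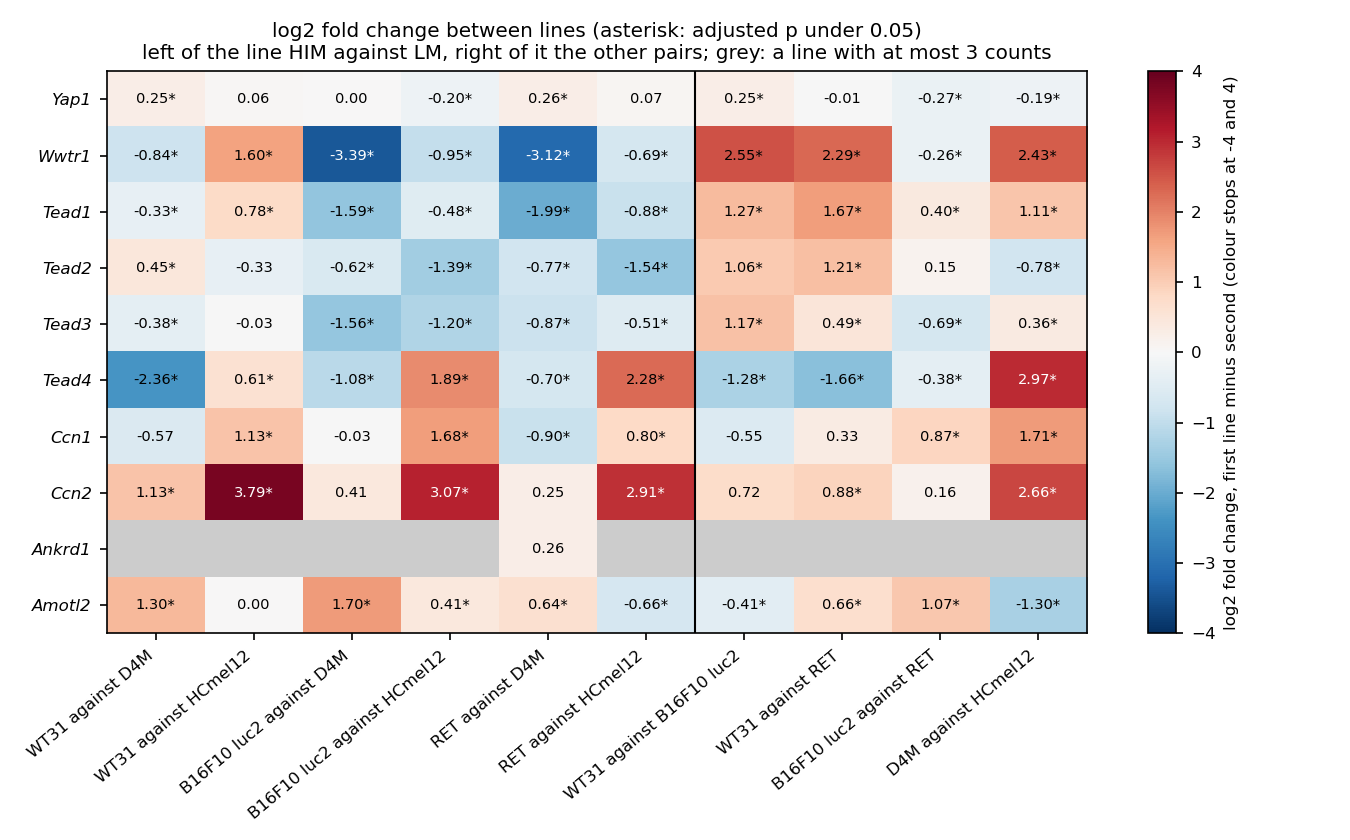
Log2 fold change of each gene (rows) for each pair of lines (columns, first minus second line; colour scale from -4 to 4), with asterisks for an adjusted p under 0.05; columns left of the black line compare HIM-melanoma with LM-melanoma, and grey cells involve a line with at most 3 counts of Ankrd1 per library. Wwtr1 has -0.84 for WT31 against D4M and 1.60 against HCmel12, Tead4 has -2.36 and 0.61 in the same columns, and Ccn2 is higher in every line than in HCmel12.

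The study asked which genes are regulated alike in all HIM-melanoma lines in relation to both LM-melanoma lines, taken here as called with the same sign in all 6 comparisons. This held for 1972 of 15247 genes (12.9%), of which 6.53% of all genes were higher and 6.4% lower in HIM-melanoma. None of the 10 Hippo members was among them by limma, and none was at an unadjusted p under 0.05, with edgeR's quasi-likelihood test or with DESeq2. The 6 comparisons share the libraries of D4M and HCmel12. Tead3 came nearest, with 0 comparisons called higher and 5 lower, and Ccn2 had 4 called higher and 0 lower. Wwtr1 and Tead1 each had 1 higher and 5 lower, the exception being WT31 against HCmel12. With the 5 line means as units, the difference of HIM-melanoma minus LM-melanoma on the log2 CPM scale was 1.90 for Ccn2 (exact two-sided permutation p = 0.1, the lowest that a split of 5 lines into 3 and 2 can give). It was -1.23 for Wwtr1 (exact p = 0.5), -0.75 for Tead3 (exact p = 0.2), -0.75 for Tead1 (exact p = 0.4), 0.56 for Amotl2 (exact p = 0.5) and 0.07 for Yap1 (exact p = 0.6). The other 4 of these 10 tests, for Tead2, Tead4, Ccn1 and Ankrd1, had an exact p of at least 0.3.

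Within each line, Ccn1 and Ccn2 varied more between cultures than the median gene. The coefficient of variation of Ccn1 was 51.6% in RET, 48% in D4M and 54% in HCmel12, and that of Ccn2 54.4%, 66.7% and 43%, whereas the median over all genes was 7.33%, 9.27% and 10.9% in the same lines. In WT31 and B16F10 luc2 Ccn2 varied by 14.1% and 19.7% (medians 9.36% and 7.53%). Amotl2 varied by 37.1% in D4M and 19.4% in WT31, but by 11.1% in HCmel12, 7.5% in RET and 3.51% in B16F10 luc2, close to or below the medians. Yap1 varied by 1.76% to 7.6% over the 5 lines. Within lines, Ccn2 spanned a 6.84-fold range in D4M, a 3.81-fold range in RET and a 3.61-fold range in HCmel12. The extremes fell in part on the same cultures. RET replicate 3 was the highest of its line for Ccn1, Ccn2, Ankrd1 and Amotl2, D4M replicate 3 was the lowest of its line for all 4, and HCmel12 replicate 3 was the highest and replicate 4 the lowest of that line for Ccn1, Ccn2 and Amotl2. In WT31 replicate 5 was the lowest for Ccn1, Ccn2 and Amotl2, but their highest were replicates 3, 1 and 4. In B16F10 luc2 their highest were replicates 2, 1 and 5 and their lowest replicates 1, 3 and 3. The lowest of RET were replicates 2, 1, 1 and 4 for Ccn1, Ccn2, Ankrd1 and Amotl2. In D4M the highest was replicate 1 for Ccn1 and replicate 5 for the other targets.

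Deviations of each library from its line mean on the log2 scale were therefore set against each other over the 25 libraries, as a description. Pearson's r was 0.79 for Ccn1 and Ccn2 (Spearman's coefficient 0.77), 0.78 for Ccn2 and Amotl2 (0.73), 0.73 for Ccn2 and Ankrd1 (0.59), 0.61 for Ankrd1 and Amotl2 (0.58), 0.60 for Ccn1 and Amotl2 (0.72) and 0.59 for Ccn1 and Ankrd1 (0.64). Over all pairs of 12729 genes with a mean of at least 1 CPM, the median r was 0.00 and 1.75% of pairs reached 0.59. Ankrd1 was not among these genes. The limit of 0.59 was the lowest r of the 6 target pairs, so that all 6 reach it by construction. All 6 values of r were positive. Without the 2 libraries farthest from the median on the first axis, r of the 6 pairs was 0.53 to 0.76, and without D4M replicate 1 and HCmel12 replicate 4 it was 0.59 to 0.79 (23 libraries). The relation was weaker without D4M, where the lowest r of the 6 pairs was 0.35 and the highest 0.79 (20 libraries). Ankrd1 was close to 0 in the other lines, and over the 10 libraries of RET and D4M alone its r was 0.84 with Ccn2, 0.75 with Ccn1 and 0.65 with Amotl2. The points share their library, with its depth and the mix of long and GC-rich transcripts. After transcript length and GC content, but not depth, were taken out by regression, the r of Ccn1 and Ccn2 was 0.80 and that of Ccn2 and Amotl2 0.77.

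**Figure D4:**
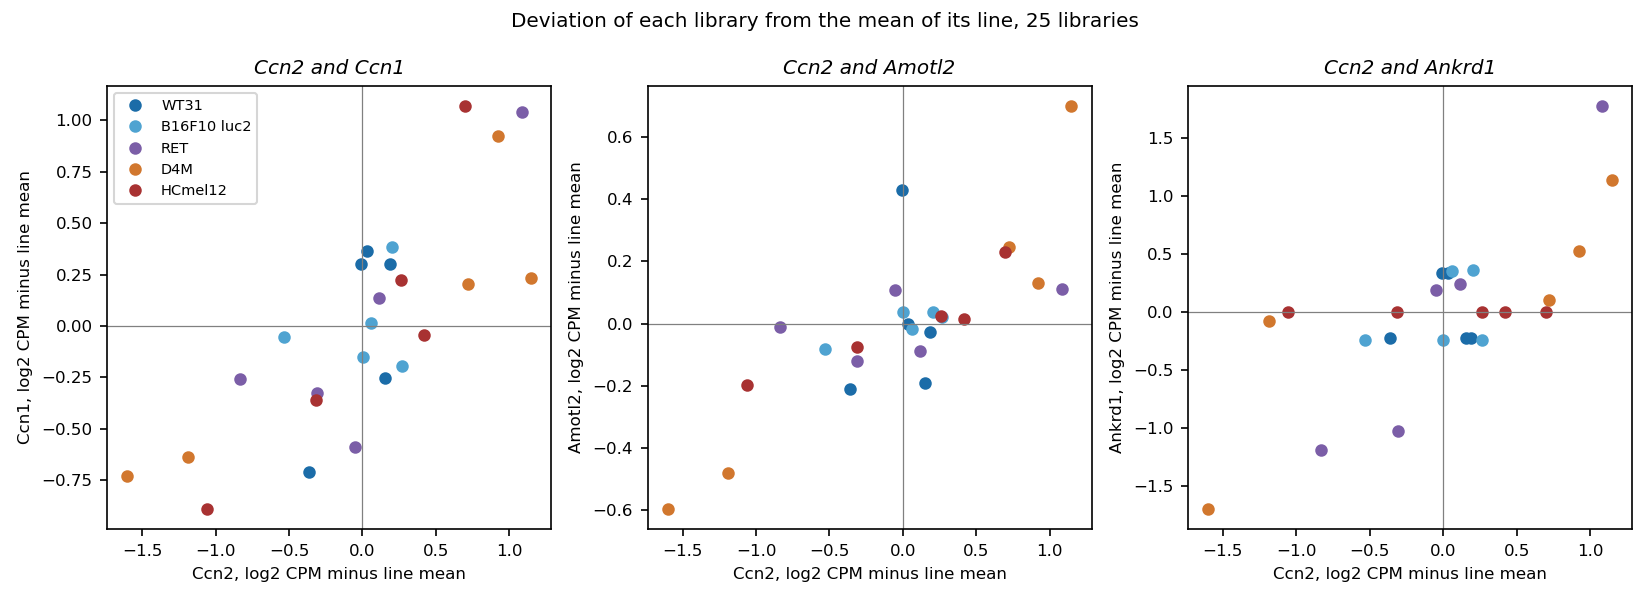
Deviation of each of the 25 libraries from the mean of its line in log2 CPM, with Ccn2 on the x axis and Ccn1, Amotl2 or Ankrd1 on the y axis; each point is a library and colours mark the 5 lines. Points run from lower left to upper right, with r = 0.79, 0.78 and 0.73, and the D4M libraries span the widest range of Ccn2.

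The co-activators had another pattern between cultures. The deviations of Wwtr1 had an r of -0.65 with Ccn2 and -0.63 with Ccn1, and -0.44 and -0.50 without the 2 farthest libraries. With Amotl2 and Ankrd1 the r of Wwtr1 was -0.46 and -0.30, and -0.27 and -0.15 without the 2 farthest libraries. The deviations of Yap1 had an r of 0.27 with Ccn2 and 0.18 with Ccn1, and 0.17 and -0.08 without the 2 farthest libraries. After regression on transcript length and GC content these values were 0.07 and 0.11. Tead1 had an r of 0.65 with Ccn2, 0.61 with Ankrd1, 0.52 with Ccn1 and 0.44 with Amotl2, and 0.53, 0.55, 0.28 and 0.43 without the 2 farthest libraries. The deviations of Tead1, a gene with long transcripts, also had an r of 0.71 with a score of transcript length per library, and its r with Ccn2 after regression on length and GC content was 0.55. Tead2 had an r of -0.43 with Ccn2, -0.27 after the same regression, and of -0.49 with the length score.

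Of the upstream genes of the pathway, kinases, adaptors and membrane proteins that restrain or modify YAP and TAZ, 40 of 44 were tested. In comparison to D4M, 19 were higher and 15 lower in WT31 (76.1% of all genes called), 13 and 18 in B16F10 luc2 (77.7%) and 12 and 22 in RET (77.1%). In comparison to HCmel12, 20 and 6 were so in WT31 (70.4%), 16 and 16 in B16F10 luc2 (69.1%), 18 and 19 in RET (67.2%) and 22 and 13 in D4M (72.5%). WT31 had 20 higher and 14 lower than B16F10 luc2 (72.8%) and 22 and 11 than RET (73.2%), and B16F10 luc2 had 11 and 6 in comparison to RET (51.5%). These counts include Dchs1, with a mean of 10.7 CPM in D4M and at most 0.105 CPM in the other lines. For this gene the filter on low counts favours a higher level in D4M. The median log2 fold change of the list lay between -0.34 (RET against D4M) and 0.34 (WT31 against RET). Commonly regulated were 3 of the 40 (12.9% of all genes), all higher in HIM-melanoma. Stk4, which encodes the Hippo kinase MST1, averaged 108 ± 2.12 CPM for WT31, 132 ± 9.95 for B16F10 luc2 and 108 ± 2.09 for RET, compared with 52.4 ± 2.62 in D4M and 88.7 ± 4.45 in HCmel12. Vgll4, a competitor of YAP for TEAD factors, averaged 51.6 ± 4.09, 78.6 ± 5.84 and 77.4 ± 6.76 CPM over these HIM-melanoma lines, compared with 36.5 ± 3.76 in D4M and 44.8 ± 7.61 in HCmel12. Limd1, an inhibitor of LATS kinases, had 196 ± 10.7, 101 ± 4.37 and 114 ± 6.38 CPM, compared with 78.4 ± 4.42 and 86.4 ± 9.76. The means of their 6 log2 fold changes were 0.76, 0.76 and 0.67, and the largest of the 6 adjusted p was 1.1e-05, 0.039 and 0.003.

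A wider list of YAP and TAZ targets, which holds Ccn1, Ccn2, Ankrd1 and Amotl2 among its 22 genes, had 21 tested. In D4M against HCmel12, 16 were higher and 4 lower, with a median log2 fold change of 2.11 compared with 0.00 over all genes, of which 72.5% were called. In comparison to D4M, 3 were higher and 14 lower in B16F10 luc2 (median -1.29), 4 and 13 in RET (median -1.03), and 9 and 10 in WT31 (median -0.47), where 77.7%, 77.1% and 76.1% of all genes were called. In comparison to HCmel12, 12 were higher and 4 lower in WT31, 10 and 7 in RET and 8 and 9 in B16F10 luc2 (70.4%, 67.2% and 69.1% of all genes). These counts and medians include Ankrd1, Foxf2 and Nt5e. The means of Foxf2 and Nt5e were 8.96 and 3.17 CPM in D4M and at most 0.32 CPM in the other lines. The filter on low counts favours a higher level in D4M for both, as it does in RET and D4M for Ankrd1. Commonly regulated were 0 higher and 4 lower in HIM-melanoma, compared with 6.53% and 6.4% of all genes. Axl, a receptor tyrosine kinase, reached 1219 ± 49.3 CPM in D4M and 57.4 ± 9.3 in HCmel12, whereas RET had 18.7 ± 8.83, WT31 32.8 ± 11.6 and B16F10 luc2 43.2 ± 9.91, with B16F10 luc2 against HCmel12 as its weakest call (-0.42, adjusted p = 0.048). Myof, a membrane repair protein, averaged 592 ± 45.7 and 139 ± 24.6 CPM for D4M and HCmel12, and 28.4 ± 7.17 (WT31), 58.4 ± 5.99 (B16F10 luc2) and 47.2 ± 10.2 CPM (RET). Arhgef17, a guanine nucleotide exchange factor, had 208 ± 24.2 and 128 ± 18.1 CPM in the LM-melanoma lines and 69.9 ± 5.91 CPM in B16F10 luc2, but 1.15 ± 0.0934 CPM in WT31 and 0.117 ± 0.0629 CPM in RET, where no library had more than 5 counts. Asap1, an Arf GTPase activator, differed less, with a mean of the 6 log2 fold changes of -0.84.

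Genes of SRF and its cofactor MRTF, which respond to actin and share targets with YAP, were counted beside them, with 18 of 19 tested. They too were mostly higher in D4M, with 14 higher and 2 lower against HCmel12 (median 2.27; 72.5% of all genes called) and, in comparison to D4M, with 3 higher and 14 lower in WT31, 4 and 14 in B16F10 luc2 and 3 and 14 in RET (76.1%, 77.7% and 77.1% of all genes). In comparison to HCmel12, 8 were higher and 5 lower in WT31, 10 and 5 in B16F10 luc2 and 13 and 3 in RET (70.4%, 69.1% and 67.2% of all genes). These counts and the median include Acta2, Fhl1 and Fhl2. Their means were 9.86, 5.15 and 16.3 CPM in D4M and at most 0.427 CPM in the other lines. For such genes the filter on low counts favours a higher level in D4M. Commonly regulated (12.9% of all genes) were Actb, the cytoplasmic actin, which was lower in HIM-melanoma (mean of the 6 log2 fold changes -0.83), and Tagln, a smooth muscle actin-binding protein, which was higher (1.87) at levels of at most 3.47 CPM. The fibroblast markers of D4M, given above, moved with these lists, and their part was not tested. Of the CCN family, 4 of 6 were tested. Beside Ccn1 and Ccn2, Ccn3 was commonly regulated and lower in HIM-melanoma, with 14.2 ± 3.85 CPM in D4M and 4.6 ± 1.79 in HCmel12, compared with 0.604 ± 0.233 in RET, 0.26 ± 0.189 in WT31 and 0.0573 ± 0.0473 in B16F10 luc2, where no library had more than 3 counts. Ccn4 averaged 0.105 ± 0.0218 CPM in HCmel12, with at most 3 counts per library, and 5.87 ± 2.77 in WT31, 16.2 ± 5.08 in RET, 28.8 ± 11.1 in D4M and 181 ± 17.5 in B16F10 luc2. Ccn1, Ccn2 and Ccn4 thus had their lowest mean in HCmel12, whereas Ccn3 was higher there than in HIM-melanoma.

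The genes with the most similar pattern over the 25 libraries were taken by Pearson's r of log2 CPM among 12728 genes. With 5 lines of 5 libraries, such values rest mainly on 5 line means. They were Pgm2l1 (0.993), Tcf4 (0.993) and Adamts7 (0.991) for Wwtr1 and Slc22a23, Tpm4 and Lamb1 (0.978 each) for Tead1. For Tead4 they were Cyp26b1 (0.973), Wnk1 (0.967) and Pdgfrb (0.967), the last of them among the fibroblast markers. Tead2 was followed by Gdf11 (0.949), Atat1 (0.939) and Reep1 (0.928), and Tead3 by Dnpep (0.957), Rras (0.927) and Vkorc1 (0.919). Ankrd1 was followed by Thap12 (0.919), Ppfibp1 (0.911) and Prrg4 (0.903), Ccn2 by Impad1 (0.910) and Scube3 (0.905), and Amotl2 by Pde5a (0.906), Usp44 (0.905) and Arid3a (0.899). The values were lowest for Yap1, with Dgki (0.888), Nacc2 (0.888) and Mme (0.885), and for Ccn1, with Cnn2 (0.843), Ptpn21 (0.820) and Nfkb1 (0.808). Cnn2, a calponin of the SRF list, averaged 190 ± 47.7 CPM for D4M and 36 ± 14.5 CPM for HCmel12, the lines with the highest and lowest mean of Ccn1.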

How the data were processed

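RNA-seq was measured in 25 libraries, 5 cultures of each of 5 lines. According to the submitters' processing notes, reads were trimmed with Trim Galore (0.6.4) and assigned to GRCm38.p6 with kallisto. The authors deposited estimated counts per gene without normalization (24.5% to 26.6% of the values per library were not whole) and TPM, scaled by transcript length and library. TPM of D4M replicate 1 was not used here. The annotation release is not given in the sources used here, and symbols and coordinates came from GENCODE vM21 by Ensembl identifier (55144 of 55385 genes with a symbol).

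Estimated counts, as deposited, were filtered with filterByExpr (edgeR 4.0.16), scaled by TMM and fitted with voom and limma (3.58.1, R 4.3.3) with a mean per line. All 25 libraries entered the fit, and p-values were adjusted per pair of lines over 15247 genes (Benjamini-Hochberg, threshold 0.05). Intervals are 95% and cover the spread between cultures, and floors of 3 counts cover counting error only. Shares of TPM and line means were compared by exact permutation with scipy (1.17.1). On simulated data for WT31 against D4M (15247 genes), 67, 67 and 66 genes were changed 1.5-fold, 2-fold and 4-fold. Of these, 73.1%, 92.5% and 100% were recovered, and 0.0552% of unchanged genes were called. Far fewer genes were changed there than the 76.1% called in the data for this pair. These values are therefore not error rates of the calls reported here.

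The members and lists were chosen with earlier results of these data known. The text names every member, the commonly regulated genes of each list (at most 8) and the 3 genes of at least 1 CPM most similar to each member, of which 1 is not reported here. Alternatives were library sizes alone, DESeq2 size factors (1.42.0), no filter or 10 counts in every library, edgeR's quasi-likelihood and DESeq2's Wald tests on counts (rounded for the latter), the 2 lines of a pair alone, the replicate number as a block, log2 TPM with a pseudocount of 1 or 0.1, a log2 fold change of 1, a threshold of 0.01, the line means as replicates, transcript length in place of TPM, and leaving out libraries.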

Additional observations from a re-analysis of the deposited data

Results flagged for a closer look

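Each member was examined within each line for a library far from the other 4, by the gap to its nearest neighbour as a share of the line's whole range, with a limit of 0.71. Of 47 groups examined, 3 were marked, where chance marks about 1 in 20, and 3 groups of Ankrd1 with too few counts were not examined. Wwtr1 in HCmel12 replicate 4 was 109 CPM, compared with 80.7 to 87.4 CPM in the other libraries of the line (gap share 0.76). Ankrd1 in RET replicate 3 was 2.72 CPM, compared with 0.277 to 0.888 CPM (gap share 0.75). Amotl2 in WT31 replicate 4 was 78.8 CPM, compared with 50.5 to 58.4 CPM (gap share 0.72).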

How the results depend on the processing

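Of the 80 called differences between lines, 71 kept their sign and call at an adjusted p under 0.05 in every fit counted that gave a value (other scaling, filters and tests, log2 TPM, the replicate block and the 25 leaving out a library, but not the minimum fold change, the threshold of 0.01 or line means as units), and 9 lost the call in at least 1 setting, as given in the report for Ccn1, Ccn2, Tead1, Tead3 and Amotl2. The causes were not tested. The sign turned only for Tead3 in WT31 against D4M, 0.03 on log2 TPM with a pseudocount of 1 and 0.03 with 0.1. Of 17 differences with an adjusted p of at least 0.1, 11 changed sign somewhere and 3 were called somewhere. A minimum of 1 for the absolute log2 fold change lowered the members called to 4 (WT31 against D4M), 3 (WT31 against HCmel12), 5 (B16F10 luc2 against HCmel12), 2 (RET against D4M), 4 (RET against HCmel12), 5 (WT31 against RET), 2 (B16F10 luc2 against RET), 6 (B16F10 luc2 against D4M), 5 (WT31 against B16F10 luc2) and 7 (D4M against HCmel12). These counts include Ankrd1 in its 6 called pairs. The share of all genes called at this minimum is not given here, so the counts are not read as a result about the members. Leaving out each library in turn gave 8 to 10 calls for WT31 against D4M, 5 to 6 for WT31 against HCmel12, 7 to 7 for B16F10 luc2 against D4M, 9 to 9 for B16F10 luc2 against HCmel12, 8 to 8 for RET against D4M, 8 to 9 for RET against HCmel12, 7 to 8 for WT31 against B16F10 luc2, 7 to 8 for WT31 against RET, 7 to 8 for B16F10 luc2 against RET, 9 to 10 for D4M against HCmel12, and 0 to 0 commonly regulated members. Scaling by library sizes alone moved the median of all genes by 0.23 in WT31 against D4M, 0.20 in RET against D4M, 0.15 in B16F10 luc2 against D4M and -0.18 in D4M against HCmel12. At least 10 counts in every library removed Ankrd1, whose 6 calls also have no value with the 2 lines of a pair alone. With line means as units, no gene of 15247 passed the adjusted threshold in limma and 1210 passed unadjusted, 0 of them members. With counts per transcript length in place of TPM, 14 of 25 mean shares moved by more than an SD, while 48 of 50 differences kept their sign and 32 were again called.

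Deviations of libraries with the same replicate number correlated with a mean r of -0.00 (-0.13 to 0.14), and 7 of 25 libraries correlated best with their own number, so that the numbers were not taken as pairs. With the replicate block, the members called were 9, 5, 7, 9, 8, 9, 7, 8, 8 and 10 in the order of the leave-out counts above, with 0 commonly regulated, as without it. Ankrd1 is limited by depth, with at most 1 count per library in WT31 and B16F10 luc2.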
